A study of Mus musculus with 16 samples.

Results

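The Ly6 genes Ly6a, Ly6c1, Ly6c2, Ly6d, Ly6e and Ly6k were examined in T cells sorted from OT-I mice, as the rows of these symbols in a table of raw counts. They are 6 genes of 54456 rows, and all 6 were among the 15675 genes with enough counts to be tested. OT-I mice carry a transgenic T cell receptor specific for a peptide of ovalbumin bound to MHC class I, so most of their T cells are CD8 T cells of a single specificity. There were 4 groups of 4 libraries each. The first held T cells of visceral adipose tissue (VAT) from mice on a high-fat diet with 60% of kcal from fat (HFD VAT), the second T cells of the same tissue from lean mice (lean VAT), the third lymph node T cells of mice on the high-fat diet (HFD LN), and the fourth lymph node T cells of lean mice (lean LN). Each diet lasted 8 weeks. The labels call the cells freshly isolated in one place and describe an overnight culture ahead of a T cell sort in another, and give no age, sex, number of animals per library or batch. P-values therefore measure the spread between these libraries.

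The Ly6 family encodes small, cysteine-rich proteins that are held at the outer face of the cell membrane by a glycosylphosphatidylinositol (GPI) lipid anchor. Several members serve as surface markers of lymphocyte and myeloid states, and Ly6a, Ly6c and Ly6e are known to be induced by interferon in mouse leukocytes. Ly6a (Sca-1) marks blood stem cells and activated T cells. Ly6c1 and Ly6c2 encode the Ly-6C antigen, a marker of monocytes and of memory CD8 T cells. Ly6e (thymic shared antigen 1) is broadly expressed and restricts the entry of some viruses, Ly6d marks lymphoid progenitors committed to B cells, and Ly6k is best known from testis and sperm.

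In GENCODE M21 (GRCm38) the 6 genes lie in one stretch of chromosome 15, and each is protein coding. From the lowest coordinate upward they are Ly6d (chr15:74762056-74763620), Ly6k (chr15:74796874-74799986), Ly6e (chr15:74955051-74959905), Ly6a (chr15:74994877-74998031), Ly6c1 (chr15:75044018-75048830) and Ly6c2 (chr15:75108158-75111970), with Ly6e on the plus strand and the other genes on the minus strand. The build behind the counts is not known, so these positions describe the genes and not the counting. Ly6i (chr15:74979534-74983430) and Ly6a2 (chr15:75131377-75135128, a transcribed pseudogene named I830127L07Rik there) lie among or beside them and are close relatives.

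The similarity of these genes bears on every value below, because short reads from a shared stretch cannot be given to a single gene. The coding sequences of Ly6c1 and Ly6c2 are each 396 bases long and differ at 9 bases, an identity of 97.7%, and 6 of the 9 differences lie in the first 150 coding bases. Those bases are shown from the start codon, 5′ to 3′, with the differing bases in capitals:
Ly6c1: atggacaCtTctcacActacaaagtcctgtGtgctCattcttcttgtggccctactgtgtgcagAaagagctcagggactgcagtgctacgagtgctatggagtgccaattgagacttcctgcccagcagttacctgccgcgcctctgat
Ly6c2: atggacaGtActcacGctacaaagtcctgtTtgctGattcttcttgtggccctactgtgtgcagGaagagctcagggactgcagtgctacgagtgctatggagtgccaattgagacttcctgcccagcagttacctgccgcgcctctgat
Of the stretches of 31 bases in the transcript of Ly6c1 numbered first in GENCODE M21, 42.9% occur in no other gene and 48.0% also occur in Ly6c2. For Ly6c2 the shares are 46.2% and 49.2%. Ly6a is less similar to its relatives, with a coding identity of 86.4% to Ly6i and 81.7% to Ly6c2, and 77.8% of its stretches are its own. Ly6d (100%) and Ly6e (99.2%) are nearly free of shared stretches. Ly6k shares 36.0% of its stretches with Gm17189, an antisense transcript that overlaps it, and whether the counting used strand is not given in the sources used here.

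The promoters of the Ly6c genes resemble each other as well, and are shown because Ly6c1, Ly6c2 and Ly6a2 were all higher in VAT. The RefSeq promoter table (GRCm38.p6, 300 bases around each start) holds 2 of the 6 genes, and a window of Ly6a2. Capitals mark the longest run that the 3 windows share, GATGCCAGCTGGGAGGAGCT, and the minus strand is given, 5′ to 3′. The windows are chr15:75048788-75049087 for Ly6c1, chr15:75111922-75112221 for Ly6c2 and chr15:75135079-75135378 for Ly6a2:
Ly6c1: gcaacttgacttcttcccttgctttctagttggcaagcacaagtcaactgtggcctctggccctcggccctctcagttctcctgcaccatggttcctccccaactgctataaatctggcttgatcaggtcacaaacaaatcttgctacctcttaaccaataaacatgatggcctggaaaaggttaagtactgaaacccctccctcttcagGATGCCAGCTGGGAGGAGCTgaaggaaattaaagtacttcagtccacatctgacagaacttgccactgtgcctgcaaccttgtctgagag
Ly6c2: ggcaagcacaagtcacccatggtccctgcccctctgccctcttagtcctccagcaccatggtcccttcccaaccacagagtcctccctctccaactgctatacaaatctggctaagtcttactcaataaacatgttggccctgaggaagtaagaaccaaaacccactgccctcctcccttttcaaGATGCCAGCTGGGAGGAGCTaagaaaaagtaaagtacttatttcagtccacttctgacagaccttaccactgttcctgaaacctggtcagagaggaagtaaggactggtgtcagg
Ly6a2: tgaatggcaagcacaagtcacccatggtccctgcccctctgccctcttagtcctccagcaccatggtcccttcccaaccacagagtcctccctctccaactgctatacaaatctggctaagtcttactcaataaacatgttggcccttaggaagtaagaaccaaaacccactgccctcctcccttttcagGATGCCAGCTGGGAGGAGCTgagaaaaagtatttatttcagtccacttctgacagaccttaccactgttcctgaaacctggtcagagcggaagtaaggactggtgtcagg
On both strands of 32851 promoter windows the shared run of 20 bases was found in 5, all of them windows of these 3 genes. The core of the interferon-stimulated response element, GAAANNGAA, was found in 8.56% of all windows, and the STAT core TTCNNNGAA in 8.30%. Neither was in a window of Ly6c1, Ly6c2 or Ly6a2.

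The libraries held 40212388 to 65957407 counts. Levels are CPM, the count scaled to a common library size after TMM normalization, and 3 counts in a library, the floor used here for a gene with no count, are 0.0437 to 0.0803 CPM. The summed level of 12 T cell markers was 8951 to 11721 CPM over the 16 libraries, so the T cell label held. For each library, the genes whose median over the other libraries of its group reached 10 CPM were taken. Those with at most 3 counts in the library itself were called missing. HFD VAT libraries 1 and 3 and lean VAT library 1 were missing 11.4%, 11.5% and 13.3% of such genes, against 0.818% to 5.45% in the other libraries.

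Ly6a, Ly6c1, Ly6c2 and Ly6e were higher in VAT than in LN T cells on either diet, and Ly6d was lower. By edgeR's quasi-likelihood F-test with Benjamini-Hochberg adjustment over all genes tested, 5 of the 6 genes passed an adjusted p of 0.05 between HFD VAT and HFD LN, where 4.56% of all genes tested did, 4 of them higher (2.68% of all genes) and 1 lower (1.88%). Between lean VAT and lean LN the same 5 genes passed, against 3.04% of all genes tested, again 4 higher (2.12%) and 1 lower (0.919%). The libraries of the tissues did not overlap for these 5 genes on either diet. Among all genes tested, 7.21% lay higher without overlap and 8.01% lower in HFD mice, and 7.24% higher and 5.7% lower in lean mice. The median fold change of the 6 genes was 2.32 (log2) between the HFD tissues, where that of all genes was -0.10, and 1.65 between the lean tissues, where that of all genes was -0.0029. These medians include Ly6k, which did not pass and had log2 fold changes of 7.52 and -3.47 from few counts. Among the other 5 genes the middle value was that of Ly6c1, at 1.73 in HFD and 2.13 in lean mice. The medians are therefore no measure of a diet effect. No Ly6 gene passed in a comparison of the diets.

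**Figure D1:**
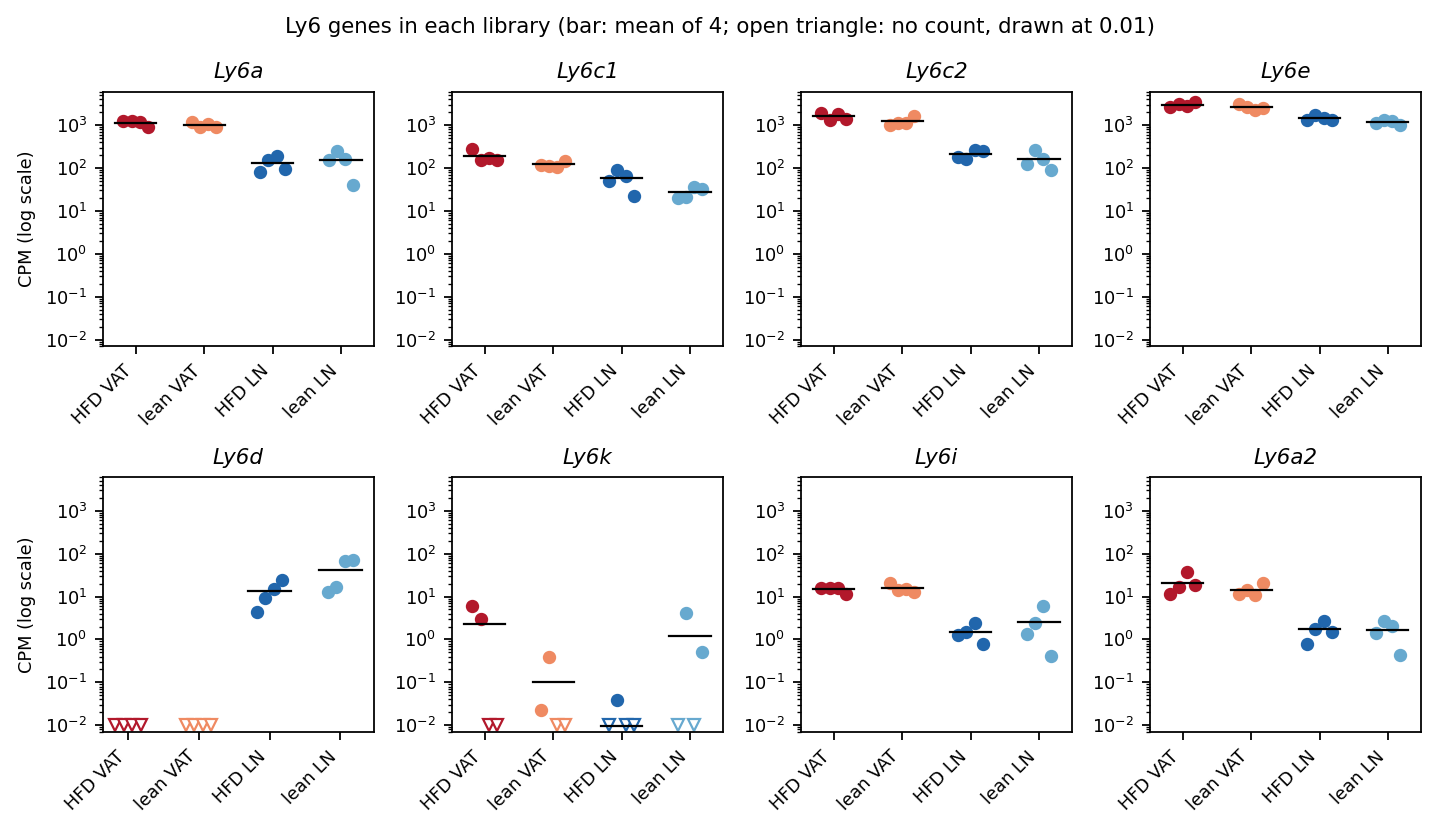
Level of each Ly6 gene and of the relatives Ly6i and Ly6a2 in each library (CPM, log axis), by group. Points are libraries, bars the mean of 4, and open triangles libraries with no count, drawn at 0.01 CPM. The VAT libraries lie above the LN libraries for Ly6a, Ly6c1, Ly6c2, Ly6e, Ly6i and Ly6a2, Ly6d has counts in the 8 LN libraries and in no VAT library, and Ly6k is scattered.

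Ly6a, the Sca-1 gene, showed the widest tissue difference of the 4 genes that rose in HFD mice. Its level was 1229, 1242, 1189.6 and 893 CPM in HFD VAT, against 81.4, 155, 192 and 95.8 CPM in HFD LN. The lowest VAT library stood more than 4 times above the highest LN library, and the groups did not overlap. In lean mice the level was 1213, 917, 1067 and 921 CPM in VAT, against 156, 246, 165 and 39.5 CPM in LN, again with no overlap and with a single LN library far below the other three. The fold change was 8.68 between HFD VAT and HFD LN (log2 3.12, SE 0.437, adjusted p = 0.000603) and 6.79 between lean VAT and lean LN (log2 2.76, SE 0.431, adjusted p = 0.00172). The spread was narrow in VAT, with means of 1138 ± 165 CPM in HFD VAT and 1029.6 ± 141 CPM in lean VAT, and wide in LN, with 131 ± 51.8 CPM in HFD LN and 152 ± 84.9 CPM in lean LN (SD, n = 4 each).

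Ly6c2 was the most abundant of the Ly-6C genes and rose by nearly the same factor on both diets. HFD VAT libraries held 1894, 1282, 1862 and 1356 CPM, against 181, 159, 262 and 245 CPM in HFD LN. Lean VAT libraries held 1027, 1131, 1117 and 1641 CPM, against 122, 270.2, 160.5 and 92.3 CPM in lean LN. No VAT library came near an LN library, and lean VAT library 4 stood apart from the other three. Ly6c2 was 7.55-fold higher in HFD VAT than in HFD LN (log2 2.92, SE 0.314, adjusted p = 7.59e-05) and 7.62-fold higher in lean VAT than in lean LN (log2 2.93, SE 0.315, adjusted p = 9.12e-05). The group means were 1599 ± 324 CPM in HFD VAT, 1229 ± 278 CPM in lean VAT, 212 ± 49.6 CPM in HFD LN and 161 ± 77.8 CPM in lean LN (SD, n = 4 each).

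Ly6c1, the copy of Ly6c2 that is known for its expression in endothelium as well as in leukocytes, was lower in level and had a smaller rise. Its level was 281, 152, 171 and 155 CPM in HFD VAT, against 49.3, 91.7, 66.2 and 21.8 CPM in HFD LN. The groups did not overlap, but HFD VAT library 1 stood well above its group and the LN values spread over a range of more than 4-fold. In lean mice the level was 117, 113, 107 and 147 CPM in VAT, against 20.5, 21.4, 35.5 and 33.0 CPM in LN, with a wide gap between the tissues. Ly6c1 was 3.31-fold higher in HFD VAT than in HFD LN (log2 1.73, SE 0.386, adjusted p = 0.0190) and 4.39-fold higher in lean VAT than in lean LN (log2 2.13, SE 0.391, adjusted p = 0.00605). The call in HFD mice did not hold in edgeR's test without HFD LN library 1 (adjusted p = 0.0641), without HFD VAT library 1 (adjusted p = 0.0615), without the 3 VAT libraries with most missing genes (log2 1.40, adjusted p = 0.139), with only the HFD groups in the fit (adjusted p = 0.110) or with the replicate number as a block (adjusted p = 0.0598).

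Because reads of Ly6c1 and Ly6c2 may not be separable, their counts were also summed into a single gene. The sum averaged 1788 ± 371 CPM in HFD VAT and 269 ± 42.1 CPM in HFD LN, and 1350.1 ± 295 CPM in lean VAT and 189 ± 74.8 CPM in lean LN (SD, n = 4 each). With the sum in place of the 2 genes, edgeR's test gave a log2 fold change of 2.73 (SE 0.265, adjusted p = 3.33e-05) between HFD VAT and HFD LN, and of 2.84 (SE 0.266, adjusted p = 3.38e-05) between lean VAT and lean LN. The rise in VAT thus passed the test with the counts of both copies added, whatever the division of reads between them.

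The division between the copies is given as the share of Ly6c1 in the summed counts. Ly6c1 held 12.9%, 10.6%, 8.40% and 10.2% in HFD VAT, against 21.4%, 36.6%, 20.2% and 8.15% in HFD LN. In lean mice it took 10.2%, 9.10%, 8.74% and 8.23% in VAT, against 14.3%, 7.34%, 18.1% and 26.3% in LN. The VAT libraries kept to a narrow band, and an LN library of each diet fell just below it. Each share rests on at least 6710 counts, and the widest 95% Wilson interval, of lean LN library 4, ran from 25.3% to 27.4%, so counting error was far smaller than the spread between LN libraries. Mean shares were 10.5% in HFD VAT and 21.6% in HFD LN, and 9.07% in lean VAT and 16.5% in lean LN. An exact two-sided permutation test of the difference gave p = 0.143 in each diet (adjusted p = 0.267 over 4 comparisons, where the smallest p that 4 against 4 libraries allow is 0.0286), so the mean shares were not separated beyond the replicate spread.

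**Figure D2:**
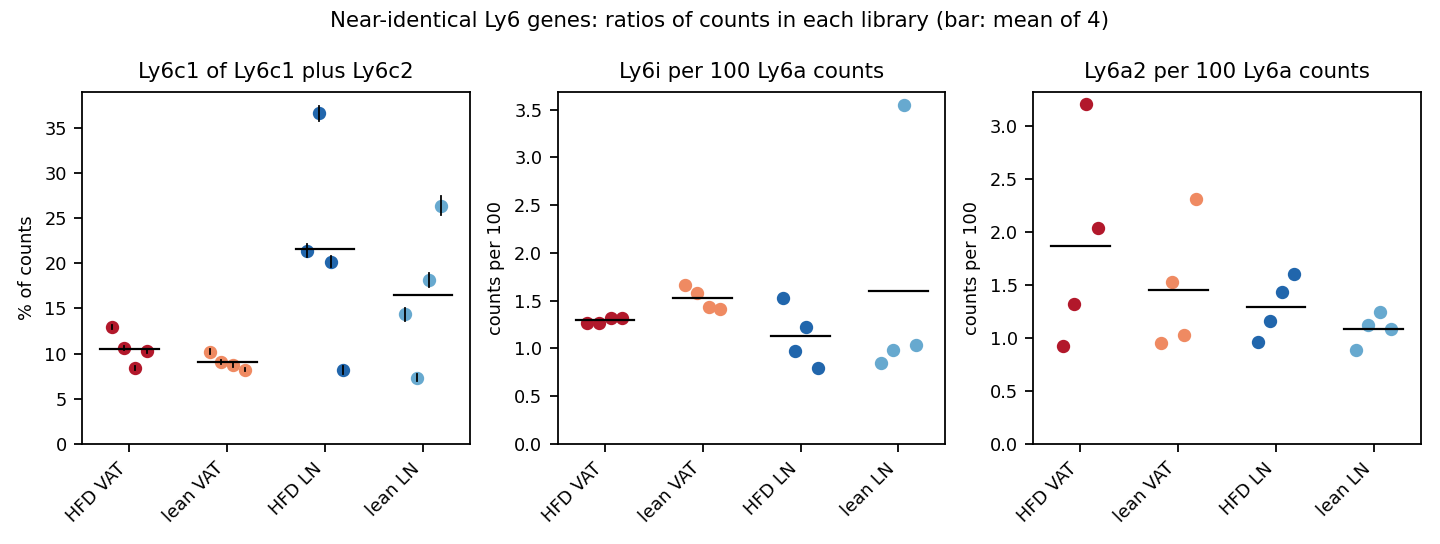
Ratios of counts between near-identical Ly6 genes in each library, by group: Ly6c1 as a percent of Ly6c1 plus Ly6c2 counts with 95% Wilson intervals (left), Ly6i per 100 Ly6a counts (middle) and Ly6a2 per 100 Ly6a counts (right). Bars are the mean of 4 libraries. The Ly6c1 share runs from 8.23% to 12.9% in VAT and from 7.34% to 36.6% in LN.

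Ly6e was the Ly6 gene with the most counts and had the smallest tissue difference. HFD VAT libraries held 2679, 3064, 2748 and 3488 CPM, against 1289.7, 1684, 1459.9 and 1338 CPM in HFD LN. Lean VAT libraries held 3037, 2696, 2208 and 2468 CPM, against 1135, 1296, 1232 and 1001 CPM in lean LN. Each VAT library exceeded each LN library. The rise was 2.08-fold between HFD VAT and HFD LN (log2 1.05, SE 0.128, adjusted p = 0.000179) and 2.23-fold between lean VAT and lean LN (log2 1.16, SE 0.128, adjusted p = 0.000117). Ly6e also varied least within groups, with a coefficient of variation of 11.0% to 13.5%, against 13.7% to 56.0% for Ly6a.

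Ly6d, the B-lineage marker, had no count in any VAT library. It had 254, 479, 681 and 1160 counts in HFD LN, which are 4.33, 9.40, 15.0 and 24.7 CPM. In lean LN it had 869, 940, 3554 and 3738 counts, which are 12.7, 16.9, 68.8 and 69.8 CPM. The lean LN libraries fell into a low and a high pair. Against the floor of 3 counts per library, Ly6d was at least 188-fold lower in HFD VAT than in HFD LN (adjusted p = 0.00248 by edgeR's test) and at least 662-fold lower in lean VAT than in lean LN (adjusted p = 0.00190). These bounds cover counting error only. HFD VAT libraries 1 and 3 and lean VAT library 1 were missing 11.4%, 11.5% and 13.3% of genes whose median in the rest of their group reached 10 CPM.

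B cell RNA was lower in VAT, as Ly6d was. The summed level of 12 B cell markers was 169 to 359.8 CPM in HFD VAT and 85.6 to 220.4 CPM in lean VAT, against 1638 to 2419 CPM in HFD LN and 1539 to 2802 CPM in lean LN. Of the 11 markers tested, 7 fell between HFD VAT and HFD LN and 5 between lean VAT and lean LN, and none rose. Fcrla and Vpreb3 had no count in either VAT group, and most of the VAT sum was Ighm, with 259 CPM in HFD VAT and 123 CPM in lean VAT. Side by side, the lean LN libraries with 12.7, 16.9, 68.8 and 69.8 CPM of Ly6d had B cell sums of 1539, 1755, 2359 and 2802 CPM, and the HFD LN libraries with 4.33, 9.40, 15.0 and 24.7 CPM had 1856, 2045, 1638 and 2419 CPM. The order was the same in lean LN and not in HFD LN. Ly6d averaged 13.4 CPM in HFD LN and 42.0 CPM in lean LN, where the median B cell sums were 1950 and 2057 CPM. In such bulk RNA fewer B cells and less RNA per cell cannot be told apart, and the part of B cells in the Ly6d difference was not tested.

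**Figure D3:**
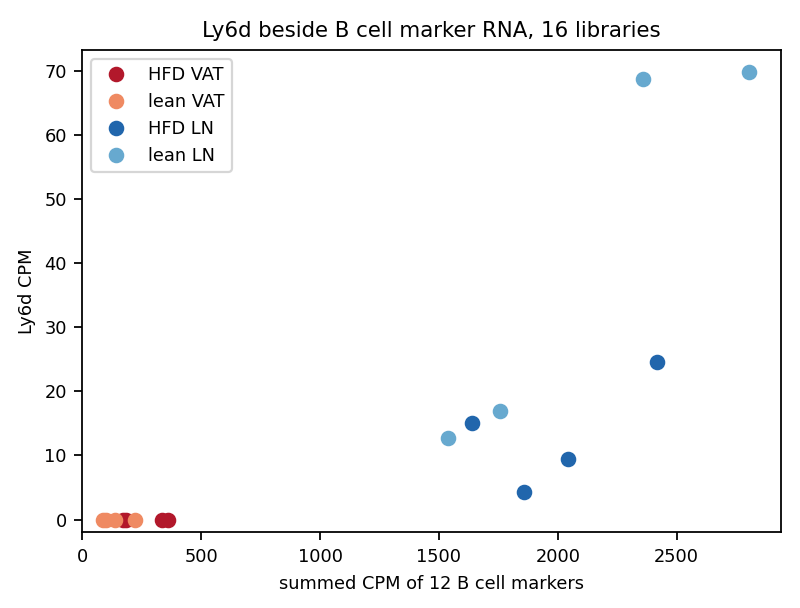
Ly6d (CPM) against the summed level of 12 B cell markers (CPM) in the 16 libraries, coloured by group. The 8 VAT libraries sit at 0 CPM of Ly6d with B cell sums of 85.6 to 359.8 CPM, and the 8 LN libraries at 4.33 to 69.8 CPM with sums of 1539 to 2802 CPM.

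Ly6k, the testis gene, was detected in few libraries. It had 276, 134, 0 and 0 counts in HFD VAT, 1, 23, 0 and 0 in lean VAT, 0, 2, 0 and 0 in HFD LN, and 0, 232, 0 and 28 in lean LN. Each group thus had at least 2 libraries with no count, and a single library held most of the counts of each group. It did not pass edgeR's test between HFD VAT and HFD LN (adjusted p = 0.194) or between lean VAT and lean LN (adjusted p = 0.694). Gm17189, which overlaps Ly6k on the other strand, had 21 to 88 counts in every library, among them the 9 with no Ly6k count.

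Within each gene that rose in VAT the groups ranked by tissue first. For Ly6c1, Ly6c2 and Ly6e the order of the means was HFD VAT, lean VAT, HFD LN and lean LN. For Ly6a it was HFD VAT, lean VAT, lean LN and HFD LN. The diet groups of a tissue did not pass the test in any of these genes, and the tissues of each diet did. Between genes, levels can be compared only per length, and the order then depends on the length used. The transcript numbered first in GENCODE M21 was taken for each gene, and which transcripts these cells express was not tested. Per kilobase of that transcript, HFD VAT held 1945 ± 395 CPM of Ly6c2, 1389.6 ± 202 of Ly6a, 1313 ± 162 of Ly6e and 225 ± 73.1 of Ly6c1, while HFD LN held 633 ± 77.1 of Ly6e, 258 ± 60.3 of Ly6c2, 160.1 ± 63.2 of Ly6a and 67.8 ± 34.8 of Ly6c1 (SD, n = 4 each). Ly6c2 thus led in VAT and Ly6e in LN on this scale. Per kilobase of coding sequence Ly6e led in every group, with 7287 CPM in HFD VAT and 3511 CPM in HFD LN, because 411 of the 2281 bases of its transcript numbered first are coding.

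The diet comparisons asked whether the high-fat diet changed these genes within a tissue. Between HFD VAT and lean VAT no Ly6 gene passed edgeR's test, where 0.0574% of all genes tested (9 genes) did. The fold changes were 1.11 for Ly6a (log2 0.14, 95% interval -0.72 to 1.01), 1.30 for Ly6c2 (log2 0.38, -0.25 to 1.01) and 1.15 for Ly6e (log2 0.20, -0.07 to 0.47). The interval of Ly6a thus ran from 0.607-fold to 2.01-fold, and that of Ly6e from 0.953-fold to 1.39-fold. Ly6c1 was the Ly6 gene whose HFD VAT libraries, at 152 to 281 CPM, all lay above the lean VAT libraries, at 107 to 147 CPM. It was 1.57-fold higher in HFD VAT (log2 0.65, 95% interval -0.16 to 1.46), with an adjusted p of 0.780 by edgeR's test, and 1.12% of all genes tested showed such a lack of overlap in the same direction. Without the 3 VAT libraries with most missing genes its log2 fold change was 0.34.

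Between HFD LN and lean LN no Ly6 gene passed, and 0% of all genes tested did (0 genes by edgeR). At an unadjusted p under 0.05 there were 529 genes (3.37%), and DESeq2 called 236, none of them among the 6 Ly6 genes. Ly6c1 was 2.08-fold higher in HFD LN (log2 1.05, 95% interval 0.24 to 1.87, unadjusted p = 0.0148, adjusted p = 1), and its HFD LN libraries, at 21.8 to 91.7 CPM, overlapped the lean LN libraries, at 20.5 to 35.5 CPM. Ly6e was 1.24-fold higher in HFD LN (log2 0.31, 95% interval 0.04 to 0.58, unadjusted p = 0.0294, adjusted p = 1). Ly6d averaged 13.4 ± 8.71 CPM in HFD LN and 42.0 ± 31.5 CPM in lean LN (SD, n = 4 each, log2 -1.65, 95% interval -3.84 to 0.53, adjusted p = 1). For Ly6a the log2 fold change was -0.21 (95% interval -1.08 to 0.66), and for Ly6c2 it was 0.39 (-0.24 to 1.02). Ly6k was lower in HFD LN at an unadjusted p of 0.0407 (log2 -6.57, SE 2.91, adjusted p = 1), or 0.167 (log2 -3.83) without lean LN library 2, which held 232 of the 260 counts of Ly6k in its group. The libraries of the groups overlapped for each of these genes.

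Whether the diet effect differed between VAT and LN was tested as an interaction, HFD minus lean in VAT minus HFD minus lean in LN. No Ly6 gene passed, and 0.0191% of all genes tested (3 genes) did. The difference of the log2 diet effects was 0.35 for Ly6a (SE 0.570), -0.40 for Ly6c1 (SE 0.531), -0.01 for Ly6c2 (SE 0.413) and -0.10 for Ly6e (SE 0.179), with adjusted p = 1.000 for each by edgeR's test. Ly6k had the largest difference of the Ly6 genes (log2 10.99, SE 3.88, unadjusted p = 0.0135, adjusted p = 0.641), from counts in 7 of the 16 libraries, and it was 8.26 without lean LN library 2. The 95% interval of the difference ran from -0.87 to 1.58 for Ly6a and from -1.54 to 0.73 for Ly6c1, and was narrowest for Ly6e, from -0.49 to 0.28.

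**Figure D4:**
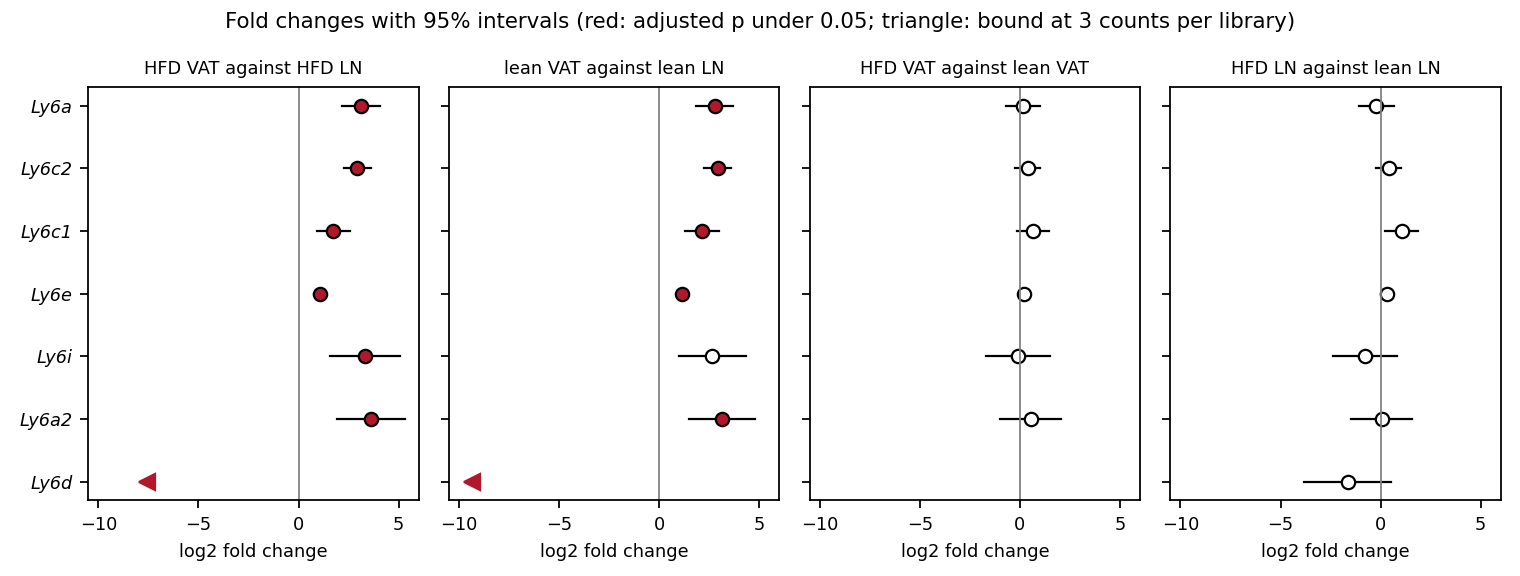
Log2 fold change of each Ly6 gene and of Ly6i and Ly6a2 in the 4 pairwise comparisons, with 95% intervals; red points passed an adjusted p of 0.05 by edgeR's test, and red triangles mark the bound for Ly6d against a VAT group at 0. Ly6k, and Ly6d between the VAT groups, are not drawn. The tissue differences of Ly6a, Ly6c2, Ly6c1 and Ly6e lie between 1.05 and 3.12, and no diet difference is red.

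Ly6i and Ly6a2, the relatives of Ly6a and the Ly6c genes, followed them at a small part of their level. Ly6i had 15.6, 15.7, 15.7 and 11.8 CPM in HFD VAT, against 1.24, 1.51, 2.36 and 0.766 CPM in HFD LN. Its level was 20.2, 14.5, 15.3 and 13.1 CPM in lean VAT, against 1.33, 2.41, 5.86 and 0.411 CPM in lean LN. The tissues did not overlap on either diet. Ly6i was 9.98-fold higher in HFD VAT (adjusted p = 0.0303 by edgeR's test) and 6.29-fold higher in lean VAT than in lean LN, which did not pass (adjusted p = 0.103). It passed in 3 of 26 alternative settings, which were DESeq2 (adjusted p = 0.000192), voom (adjusted p = 0.00777) and edgeR without lean LN library 3 (adjusted p = 0.0470). The call in HFD mice was lost in 10 of 26 alternative settings, among them the removal of any HFD LN library or of HFD VAT library 1, 2 or 3, with adjusted p up to 0.0950 among the removals. Ly6a2 had 11.3, 16.4, 38.1 and 18.2 CPM in HFD VAT, against 0.784, 1.79, 2.75 and 1.53 CPM in HFD LN. It was 12.2-fold higher in HFD VAT (adjusted p = 0.0155 by edgeR's test) and 8.71-fold higher in lean VAT than in lean LN (adjusted p = 0.0409). The first call was lost in 4 of 26 settings, 2 of them the removal of HFD LN library 1 or 4, with adjusted p up to 0.0556 among the removals. The second was lost in 14 of 26, among them the removal of any lean LN library, of lean VAT library 2, 3 or 4, or of library 2 or 4 of either HFD group, with adjusted p up to 0.128 among the removals.

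The ratio of the relatives to Ly6a was similar in most libraries. Ly6i had 0.799 to 1.66 counts per 100 counts of Ly6a in 15 libraries and 3.55 in lean LN library 3. Ly6a2 had 0.889 to 3.20 counts per 100 counts of Ly6a. The share of Ly6a reads among the counts given to Ly6i and Ly6a2 was not tested. Ly6e-ps1, a pseudogene of Ly6e, had 0.0127 to 0.0782 counts per 100 counts of Ly6e.

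Most other members of the Ly6 and uPAR family had few or no counts in these T cells. Of 39 further members, 5 had enough counts to be tested, 21 had no library over 3 counts and 2 had no count at all. Besides Ly6i and Ly6a2, the members tested were Ly6g5b, Lypd6b and Plaur, the urokinase receptor, and none of these passed in any comparison. Lypd6b averaged 5.89 ± 11.7 CPM in HFD VAT and 38.3 ± 24.0 CPM in HFD LN, and Plaur 4.89 ± 6.95 CPM in HFD VAT and 24.5 ± 15.2 CPM in HFD LN (SD, n = 4 each). In lean mice Lypd6b averaged 3.66 CPM in VAT and 50.5 CPM in LN, and Plaur 3.57 CPM in VAT and 24.7 CPM in LN. In HFD VAT, library 4 held 1009 counts of Lypd6b and the others at most 2. Ly6g, the neutrophil marker of the family, had 12 counts over all libraries.

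Other genes of the GPI anchor route and other GPI-anchored proteins did not rise with the Ly6 genes as lists. Of 28 tested genes that build and attach the anchor, 0 rose and 2 fell between HFD VAT and HFD LN, namely Dpm2, a subunit of dolichol-phosphate-mannose synthase, and Pigx, a subunit of the first mannosyltransferase of the anchor, and none passed between lean VAT and lean LN. The calls of Dpm2 and Pigx were lost in 8 of 26 alternative settings each. The list's median log2 fold change was -0.14 in HFD mice and -0.11 in lean mice, close to that of all genes. The list of other GPI-anchored surface proteins also held Tnfrsf10b, a transmembrane receptor without this anchor. Of the 13 tested genes of that list, 1 rose and 0 fell on each diet. It was Bst2 (tetherin), a GPI-anchored antiviral protein that is also on the interferon list, with 1263 ± 201 CPM in HFD VAT and 53.2 ± 28.0 CPM in HFD LN, a 23.7-fold rise (adjusted p = 3.45e-05 by edgeR's test), and an 18.3-fold rise between lean VAT and lean LN.

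Interferon-stimulated genes were higher in VAT together with the Ly6 genes. Of 36 tested, 26 rose and 0 fell between HFD VAT and HFD LN, with a median log2 fold change of 4.73, and 24 rose and 1 fell between lean VAT and lean LN, with a median of 4.34. Mx1, an antiviral GTPase, averaged 681 ± 243 CPM in HFD VAT and 0.132 ± 0.201 CPM in HFD LN, and Isg15, a ubiquitin-like modifier, 757 ± 301 CPM in lean VAT and 0.745 ± 1.49 CPM in lean LN (SD, n = 4 each). Single libraries carried these LN values, since HFD LN library 4 held 20 of 26 counts of Mx1 and lean LN library 3 all 154 counts of Isg15. The log2 fold change of Isg15 between lean VAT and lean LN was 10.00, and 18.18 without that library. The gene that fell was Ifi27, with 50.8 ± 19.5 CPM in lean VAT and 183 ± 79.1 CPM in lean LN, a call lost in 4 of 26 alternative settings. Ly6a, Ly6c1, Ly6c2 and Ly6e, with log2 fold changes of 1.05 to 3.12, thus had smaller differences than the median of this list on each diet. None of the 36 passed in a diet comparison.

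Among 23 markers of memory and effector CD8 T cells, 7 rose and 7 fell between HFD VAT and HFD LN, and 6 rose and 7 fell between lean VAT and lean LN. Id2, a regulator of effector cells, rose 11.4-fold in HFD VAT and 11.6-fold in lean VAT. S1pr1, the receptor for sphingosine-1-phosphate that lets T cells leave lymphoid organs, fell to 235 ± 86.6 CPM in HFD VAT, against 1049.9 ± 143 CPM in HFD LN, and to 187 ± 76.7 CPM in lean VAT, against 1088 ± 148 CPM in lean LN (SD, n = 4 each). Gzmb, a cytotoxic protease, averaged 10454 ± 3732 CPM in HFD VAT and 6896 ± 2474 CPM in lean VAT, against 0.0134 ± 0.0166 CPM in HFD LN and 1.68 ± 3.37 CPM in lean LN (SD, n = 4 each). Its LN counts were 3 in all in HFD LN and 348 in lean LN, all of them in library 3, and the log2 fold change between lean VAT and lean LN was 12.01, or 21.37 without that library. The lists were described by their counts, and nothing particular to them was tested.

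**Figure D5:**
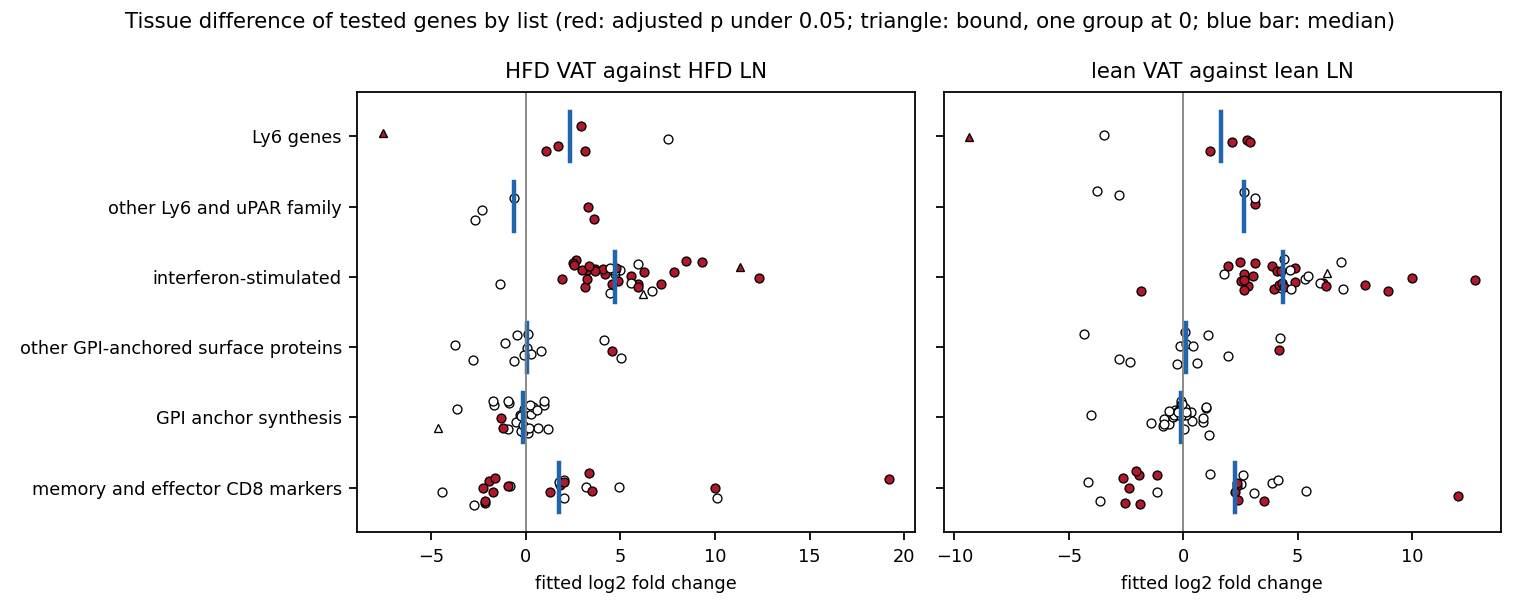
Fitted log2 fold change of the tested Ly6 genes and of the tested genes of each list between HFD VAT and HFD LN (left) and between lean VAT and lean LN (right). Red symbols passed an adjusted p of 0.05 by edgeR's test, triangles are bounds for genes with no count in a group, and blue bars are medians; values far from 0 belong to genes with almost no counts in a group and depend on the prior count. The median of the Ly6 genes, with Ly6k included at 7.52 and -3.47, is 2.32 and 1.65, and that of the interferon-stimulated genes 4.73 and 4.34.

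Markers of cells other than T and B cells that carry Ly6 proteins were also measured. The summed level of 10 monocyte and macrophage markers was 94.3 to 255 CPM in HFD VAT and 85.9 to 175 CPM in lean VAT, against 0.460 to 24.8 CPM in HFD LN and 6.16 to 22.6 CPM in lean LN, and 2 of the 10 had enough counts to be tested and 0 passed. Most of it was Ccr2, a receptor that effector T cells also carry (87.5 CPM in HFD VAT, 87.8 CPM in lean VAT) and Cd68 (60.9 CPM in HFD VAT, 38.8 CPM in lean VAT), while Adgre1 had 1 count in each VAT group and Cd14 had none in either. The part of such cells in the Ly6c2 difference was not tested beyond these values. The 8 endothelial markers summed to 43.6 to 103 CPM in HFD VAT and 29.6 to 67.6 CPM in lean VAT, against 124 to 204 CPM in HFD LN and 70.3 to 168 CPM in lean LN, and most of this was Pecam1, which naive T cells also express. The endothelial sum was lower in VAT, where Ly6c1 was higher, while between the diets its medians ran the same way as the mean of Ly6c1, with 60.6 CPM in HFD VAT and 45.9 CPM in lean VAT, and 155 CPM in HFD LN and 107 CPM in lean LN. The part of endothelial RNA in the Ly6c1 values was not tested. The 7 natural killer and innate lymphoid markers were higher in VAT with the Ly6 genes, at 35.1 to 101 CPM in HFD VAT and 3.32 to 67.5 CPM in lean VAT, against 0 to 4.62 CPM in HFD LN and 0 to 10.6 CPM in lean LN. Most of this was Klrb1c (NK1.1), with 50.2 CPM in HFD VAT and 21.3 CPM in lean VAT, against 0.840 CPM in HFD LN and 0 CPM in lean LN, while Ncr1 had no count in HFD VAT. Of the 7, 3 had enough counts to be tested and 0 passed, and their part in the Ly6 differences was not tested. The 7 plasmacytoid dendritic cell markers, lower in VAT as Ly6d was, summed to 0.0268 to 75.0 CPM in HFD VAT and 28.5 to 85.5 CPM in lean VAT, against 158 to 200.5 CPM in HFD LN and 59.8 to 168 CPM in lean LN, and 0 of the 4 tested passed. Most of the LN sum was Ccr9, with 108 CPM in HFD LN and 88.9 CPM in lean LN. Siglech and Klk1 had no count in either LN group. The 6 plasma cell markers summed to 0 CPM in HFD VAT and 0 to 5.36 CPM in lean VAT, against 8.18 to 70.7 CPM in HFD LN and 4.91 to 33.4 CPM in lean LN, and 1 of the 3 tested fell on each diet. Most of the LN sum was Sdc1 (17.2 CPM in HFD LN, 1.47 CPM in lean LN) and Iglv1 (11.1 CPM in HFD LN, 14.7 CPM in lean LN). Tnfrsf17 had no count in any group, and Jchain averaged 0.0330 CPM in HFD LN and 1.04 CPM in lean LN. The part of these cells in the Ly6d difference was not tested. The neutrophil markers summed to at most 0.204 CPM in any library. The highest sums in any library were 40.5 CPM for fibroblast and progenitor markers, in HFD VAT, 22.0 CPM for epithelial markers, in lean VAT, and 0.308 CPM for adipocyte markers, in HFD LN.

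The genes whose profiles over the 16 libraries were most like each Ly6 gene were ranked by the root-mean-square difference of centred log2(CPM + 0.5) values among 9232 genes that averaged at least 5 CPM. Ly6a was closest to Ddx60 (0.355), an interferon-inducible helicase, followed by its relatives Ly6i (0.425) and Ly6a2 (0.476). Ly6c2 was closest to Trim30a (0.386), another interferon-inducible gene, and then to Ly6a2 (0.429) and Phf11b (0.453). Ly6c1 was closest to S100a6 (0.507), Cycs (0.537) and Cd82 (0.558), and not to Ly6c2 (0.815), despite the shared sequence. Ly6e was closest to Sub1 (0.175), Clic1 (0.188) and H2-D1 (0.188), a classical MHC class I gene. Ly6d was closest to Blk (0.724) and Ms4a1 (0.805), both on the B cell marker list, and to Tmie (0.844). The typical gene differed by far more, with medians of 1.59 for Ly6e to 2.94 for Ly6d. Among the Ly6 genes the closest pair was Ly6a and Ly6c2 (0.504). All libraries share the tissue and diet design, so such likeness is a description of these 16 profiles.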

How the data were processed

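The authors deposited raw counts per gene, whole numbers without normalization, in 54456 rows and 16 columns. The tools named per the submitters' processing notes are kallisto 0.42.4 and DESeq2, with GRCh38, a human build, although the symbols are mouse ones. How reads of near-identical genes were divided is not given in the sources used here, and the labels name more than 1 kit and sequencer, so read length is uncertain.

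Genes kept by filterByExpr (15675) were scaled by TMM and fitted over all 4 groups in edgeR 4.0.16 (R 4.3.3, robust quasi-likelihood F-test, common dispersion 1.52), with Benjamini-Hochberg adjustment at 0.05 for 5 comparisons. The fit was also run on simulated counts, with their dispersion capped well below this common value. That run therefore does not cover the spread of these data. SE is the log2 fold change over the root of F. Library totals were 40212388 to 65957407 counts. Since PCR copies are not independent molecules, Wilson intervals and the 3-count floor cover counting error only. Intervals of fold changes rest on the spread between libraries. The Ly6 genes and all lists were chosen with earlier results of these data known. The genes named by rule are the 6 Ly6 genes, the 3 most like each, the tested family members, and up to 3 list genes per direction that passed, some given only as counts and some not reported here. DESeq2 1.42.0, limma 3.58.1 voom, other scalings and filters, the compared groups alone, a replicate block and left-out libraries were alternatives. The labels state no pairing, and replicate numbers were not taken as one.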

Additional observations from a re-analysis of the deposited data

Results flagged for a closer look

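Of 26 sets of 4 libraries examined, 6 held a library far from its group by Dixon's criterion, and chance gives about 1 in 20 sets. The lowest Ly6a level in HFD VAT was 893 CPM (library 4), next to 1189.6 to 1242 CPM in the other three. The highest Ly6c1 level in HFD VAT was 281 CPM (library 1), against 152 to 171 CPM in the others. This library also had at most 3 counts for 11.4% of the genes whose median over the other libraries of its group reached 10 CPM. The highest Ly6c2 level in lean VAT was 1641 CPM (library 4), against 1027 to 1131 CPM in the others. Ly6k was flagged in 3 groups because 1 library held most of its counts, at 0.384 CPM in lean VAT, 0.0393 CPM in HFD LN and 4.17 CPM in lean LN. The Ly6a and Ly6c2 libraries that stood apart still lay far outside the other tissue's range.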

How the results depend on the processing

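Over 26 alternative settings, 690 of 708 fold changes of the 6 Ly6 genes kept their direction and their side of the threshold, 5 lost a call and 13 changed direction. The 5 lost calls were of Ly6c1 between HFD VAT and HFD LN, given beside that result. Calls of Ly6a, Ly6c2, Ly6d and Ly6e between the tissues were kept in every setting run. Direction changed in values near 0 that never passed the test: Ly6c2 in the difference between diet effects (0.0665 with RLE and with DESeq2, 0.0159 without a filter, -0.38 to 0.19 with single libraries left out), Ly6e in the same difference without the 3 VAT libraries with most missing genes (0.12), and Ly6a between HFD LN and lean LN (-0.52 to 0.12 with single libraries left out). Ly6i changed direction between HFD VAT and lean VAT (0.0028 with RLE and with DESeq2, -0.18 to 0.0437 with single libraries left out), between HFD LN and lean LN (-1.12 to 0.0935) and in the difference (-0.18 to 1.03), and Ly6a2 between HFD LN and lean LN (-0.27 to 0.41). Of 1480 fold changes of other named genes, 106 lost and 6 gained a call.

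The number of all genes called depended on the setting. Between HFD VAT and HFD LN it was 714, with 441 without a filter, 2578 by DESeq2 and 483 to 886 with single libraries left out. Between lean VAT and lean LN it was 476, with 1569 by DESeq2, 1350 by voom and 325 to 492 with single libraries left out. Between HFD VAT and lean VAT it was 9, with 2 without a filter, 769 by DESeq2, 32 by voom, 0 with only these groups in the fit, 62 without the 3 VAT libraries and 3 to 40 with single libraries left out. Between HFD LN and lean LN it was 0, with 236 by DESeq2, 3 by voom and 0 to 1 with single libraries left out. In the difference between diet effects it was 3, with 1 by upper quartile scaling, 1 without a filter, 1 with a stricter filter, 635 by DESeq2, 6 by voom, 46 without the 3 VAT libraries and 0 to 24 with single libraries left out. The number of Ly6 genes called was 4 to 5 between HFD VAT and HFD LN and 5 between lean VAT and lean LN with single libraries left out, and 0 in the diet comparisons. The cause was not tested.

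Same-numbered libraries did not deviate together (correlations of -0.0941 to 0.0424 over 24 pairs, and 5 of 16 libraries matched best with their own number). The numbers were not taken as a pairing, since the labels state none. Such correlations cannot exclude that some libraries came from the same animal. With the replicate number as a block, 505 genes were called between HFD VAT and HFD LN, 337 between lean VAT and lean LN, 1 between HFD VAT and lean VAT, 0 between HFD LN and lean LN and 0 in the difference, with 4 Ly6 genes in HFD and 5 in lean mice, and Ly6c1 between HFD VAT and HFD LN had an adjusted p of 0.0598 by edgeR's test.

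Counts of Ly6k, Ly6i and Ly6a2 were low in LN, where single libraries held 22 to 303 counts of Ly6i and as few as 0 of Ly6k. Ly6k was scattered in VAT as well, and the cause was not tested. For Ly6d in VAT the data give an upper limit per library, which covers counting error only, and no level.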
